A study of Homo sapiens with 12 samples.

Results

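The stretch described here is a window of 5 Mb in band 8q24.2 of the human genome, on hg19 chromosome 8 from 130000001 to 135000000. Its members are all rows of 10 lists of enriched regions that overlap the window, 273 of 262931 rows in all, with 72 from the cell line SW620 and 201 from the cell line SW480. The window was chosen on measured values of these same lists: the numbers of H3K4me2, H3K27ac and H3K36me3 regions called in a single line. The excess of SW480 regions for those 3 marks is therefore a description and no finding, while H3K4me3 and FOXA2 did not enter the choice. The description is set out against 5 genes of the window, ASAP1, ADCY8, KCNQ3, NDRG1 and ST3GAL1. The nearest member to the lower edge, an SW480 FOXA2 peak, lay 372.5 kb inside it, and the nearest region beyond that edge, an SW620 H3K4me2 region of 1001 bp, lay 90.2 kb outside. At the higher edge the nearest member, an SW480 FOXA2 peak, lay 127.2 kb inside, and the nearest region beyond, an SW480 H3K4me2 region of 1001 bp, lay 196.4 kb outside.

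The series used chromatin immunoprecipitation followed by sequencing on SW620, labelled as Dukes' type C colorectal adenocarcinoma, and SW480, labelled as Dukes' type B colorectal adenocarcinoma. SW620 is widely known as a line from a lymph node metastasis and SW480 as one from a primary colon tumour. Both lines were grown without treatment in DMEM with serum, and the growth notes speak of luciferase only for cells that were injected into mice. Each line gave 1 library for each of H3K4me2, H3K4me3, H3K27ac, H3K36me3 and FOXA2, plus 1 input library, so 12 samples formed 12 groups. A comparison of the lines is thus a comparison of single libraries, with no replicate spread and no p-value. Total tags per antibody library lay between 12791745 and 47867295, and the intervals given below are exact binomial 95% intervals that cover counting error only. Neighbouring regions are not independent, so these intervals are too narrow.

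Histone marks divide an active gene into parts. H3K4me3 lies at the start of active genes, H3K4me2 at starts and at enhancers, and H3K27ac at those starts and enhancers that are in use. H3K36me3 is laid down behind elongating RNA polymerase II by SETD2 and covers the transcribed body of a gene, often more densely toward its end. FOXA2, a forkhead transcription factor, works in the liver and other organs of the foregut and can bind enhancers early. The genes of the window have unlike roles. ASAP1 is an Arf GTPase-activating protein of focal adhesions and membrane traffic, NDRG1 is a stress- and hypoxia-responsive protein linked to differentiation of the colon epithelium, and ST3GAL1 is a sialyltransferase that caps O-linked glycans. KCNQ3 is a subunit of the neuronal M-type potassium channel and ADCY8 is a calcium-stimulated adenylyl cyclase best known from brain. All 5 genes are transcribed toward lower coordinates, as is known from gene annotation, so that the high-coordinate end of each interval was read as its start.

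The lists had unlike numbers of regions in the window. H3K36me3 had 23 regions over 27.3 kb in SW620 and 115 regions over 249.7 kb in SW480. H3K27ac had 10 regions over 20.6 kb in SW620 and 26 over 62.0 kb in SW480. H3K4me2 had 21 regions over 44.3 kb in SW620 and 41 over 78.4 kb in SW480. Those are the 3 marks that chose the window. H3K4me3, which did not, had 9 regions over 19.8 kb in SW620 and 10 over 25.9 kb in SW480, close to equal in number. FOXA2 had 9 peaks in either line, where the whole lists held 12372 in SW620 and 5207 in SW480. The equal number belongs to these edges and list lengths. A window 1 Mb lower held 30 peaks in SW620 and 13 in SW480, and lists of equal length left 4 in SW620 and 9 in SW480. All SW620 peaks had the same width and the same score, so neither could rank them for that cut. The order of rows in the deposited list was left for it.

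In covered length the ratio of SW620 to SW480 was 0.109 for H3K36me3, 0.332 for H3K27ac, 0.564 for H3K4me2 and 0.766 for H3K4me3. On the rest of chromosome 8 the same ratios were 1.13, 0.884, 1.13 and 0.927. The choice of the window on the first 3 of these marks sets part of that order, and nothing is read from it. The H3K36me3 libraries had 35.2% of 46006580 tags in regions in SW620 and 32.8% of 37446361 in SW480. The H3K27ac libraries were less alike, with 27.5% of 47867295 tags in SW620 and 58.5% of 34224728 in SW480, and the part of this gap in the acetylation results was not tested.

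Of the window's H3K36me3 regions, 11 of 23 in SW620 and 105 of 115 in SW480 overlapped no region of the other line, against 27.9% of the whole SW620 list and 34.3% of the whole SW480 list. For H3K27ac the line-only regions were 2 of 10 in SW620 and 18 of 26 in SW480, against 26.8% and 32.0% of the lists in the same order. For H3K4me2 they were 6 of 21 in SW620 and 26 of 41 in SW480, against 30.2% and 23.2%. The window was chosen for these counts and nothing further is read from them. For H3K4me3, 0 of 9 regions in SW620 and 1 of 10 in SW480 were line-only, against 6.85% and 17.1% of the lists, and by a floor of 3 counts 0 of 9 allows a share of up to 33.3%. No FOXA2 peak of either line met one of the other, as for 98.1% of the SW620 list and 95.5% of the SW480 list.

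**Figure D1:**
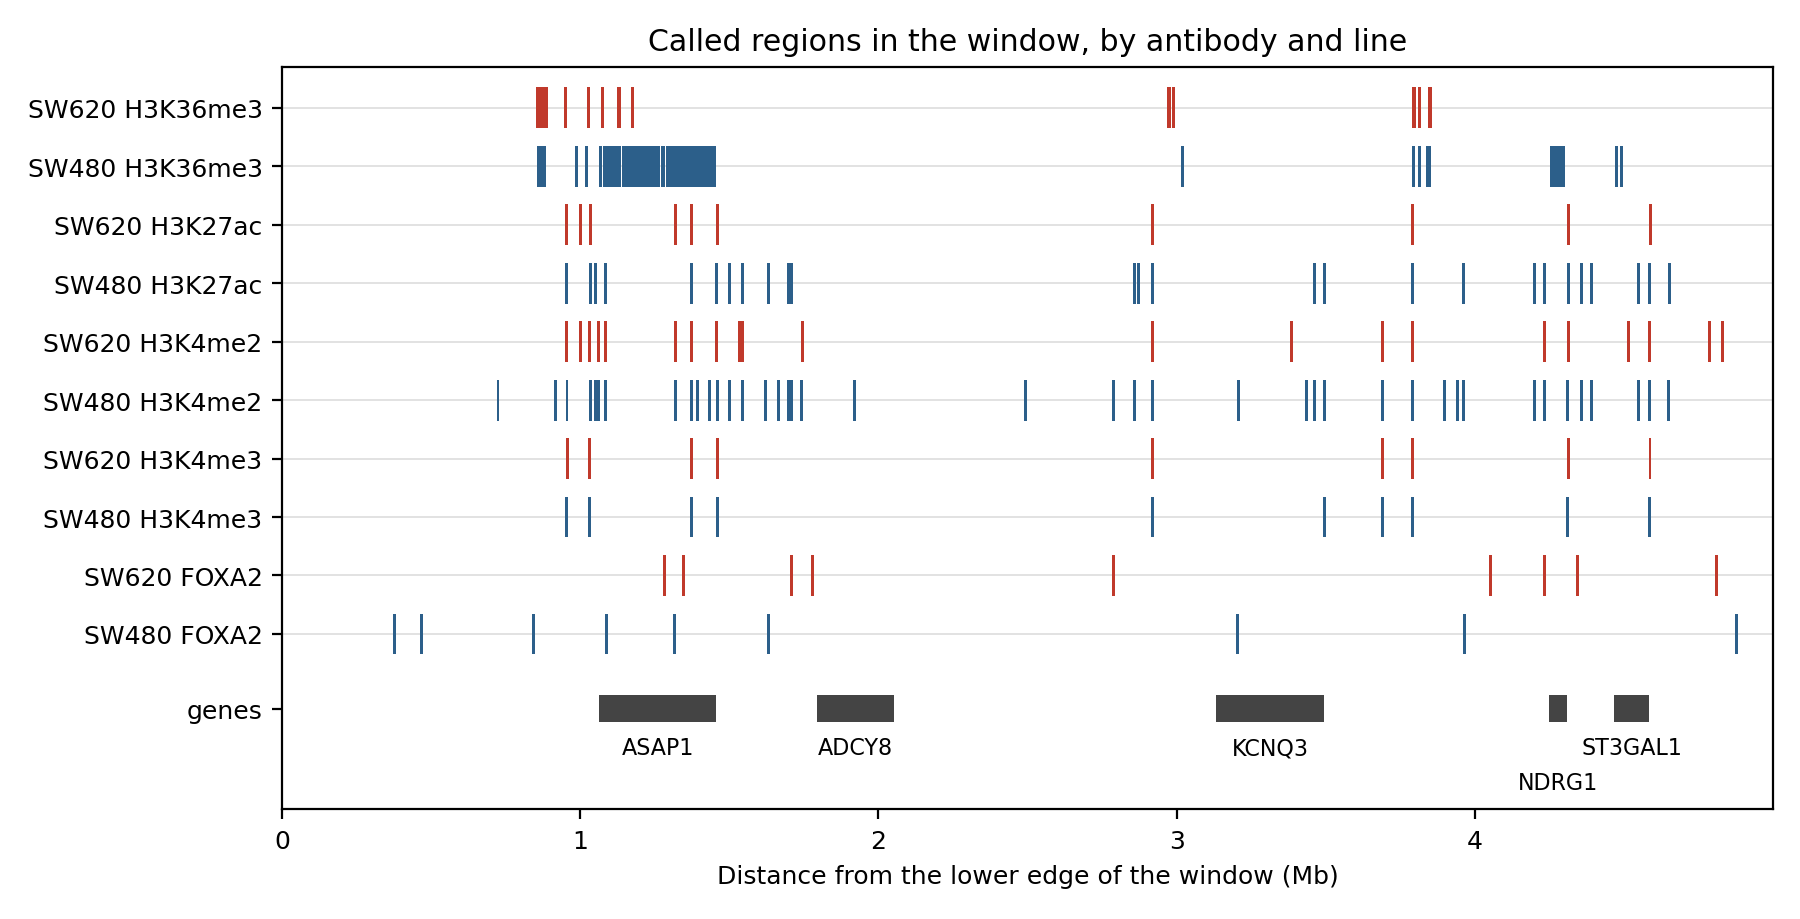
Every called region of the window, drawn by its distance from the lower edge in Mb, with a row for each antibody and line (SW620 red, SW480 blue) and the 5 gene intervals as grey bars. Regions narrower than 10 kb are drawn 10 kb wide so that they can be seen. The dense SW480 H3K36me3 blocks stand over ASAP1 and NDRG1, while the H3K4me3 rows of the lines match at all but 1 position.

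The SW480 excess of H3K36me3 lay mostly within gene intervals. Inside the 5 genes H3K36me3 covered 7.13 kb in SW620 and 227.5 kb in SW480, a ratio of 0.0313. Outside them it covered 20.2 kb in SW620 and 22.2 kb in SW480, a ratio of 0.908, with 18 SW620 and 16 SW480 regions. ASAP1 and NDRG1 alone held 94 of the 105 SW480-only H3K36me3 regions and none of the 11 SW620-only ones. With both genes left out, a step added after the data were seen, 18 H3K36me3 regions remained in each line, over 20.2 kb in SW620 and 25.1 kb in SW480. These 2 genes were left out because they were seen to carry the excess, so the evenness of the rest is a description. The excess of H3K36me3 in SW480 was thus mostly that of 2 gene bodies, while 18 of the 23 SW620 regions lay outside both.

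ASAP1, on chromosome 8 from 131064351 to 131455906, carried most of it. It held 5 H3K36me3 regions in SW620 and 85 in SW480, covering 7.13 kb in SW620 and 201.8 kb in SW480. That is 1.82% of the 391.6 kb gene in SW620 and 51.5% in SW480, a ratio of 0.0353. All 5 SW620 regions lay on SW480 regions, the widest from 131122004 to 131124028 with 2025 bp. They fell in the part of the gene far from its start, between 131068822 and 131172506.

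The widest H3K36me3 regions of the window were all SW480 regions of ASAP1. The widest spanned 18315 bp from 131117840 to 131136154, place 397 by width among 52664 SW480 regions. The next spanned 10495 bp from 131064382 to 131074876, beginning 0.031 kb inside the gene's low-coordinate end. The third, 10067 bp from 131405330 to 131415396, was the widest with no SW620 region on it. In SW620 the widest of the window was the region of 2025 bp named above. It was followed by a shared region of 1633 bp from 133790372 to 133792004, between KCNQ3 and NDRG1, and by 1523 bp from 131170984 to 131172506 in ASAP1. The widest SW620-only region had 1273 bp, from 133845886 to 133847158. Joined across gaps of up to 5 kb, the SW480 regions made a single stretch of 129.3 kb from 131064382 to 131193659, of which 76.4% was covered. The longest joined stretch of SW620 in ASAP1 was 7.41 kb.

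H3K36me3 in SW480 ran through the whole ASAP1 gene, with a dip in the middle. The gene was cut into 10 equal parts of 39.2 kb, counted from the start. SW620 coverage was 0 in the first 7 parts and 3.89%, 8.37% and 5.95% in the last 3. SW480 coverage was 56.6%, 55.9% and 49.9% in the first 3 parts, 18.3% in part 5 and 68.8%, 82.1% and 75.9% in the last 3. The last 3 parts were thus the best covered of the gene in both lines.

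NDRG1, on chromosome 8 from 134249414 to 134309547, held no H3K36me3 region in SW620 and 12 in SW480, and all 12 were called in SW480 alone. They covered 22.8 kb, 37.9% of the 60.1 kb gene, and the widest had 3301 bp. Of 10 equal parts, the first 2 from the start had none, and the other 8 had between 21.0% and 76.8%. The SW620 H3K36me3 region nearest to the start of NDRG1 lay 462.4 kb away, and the SW480 one 12.3 kb away, inside the gene.

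**Figure D2:**
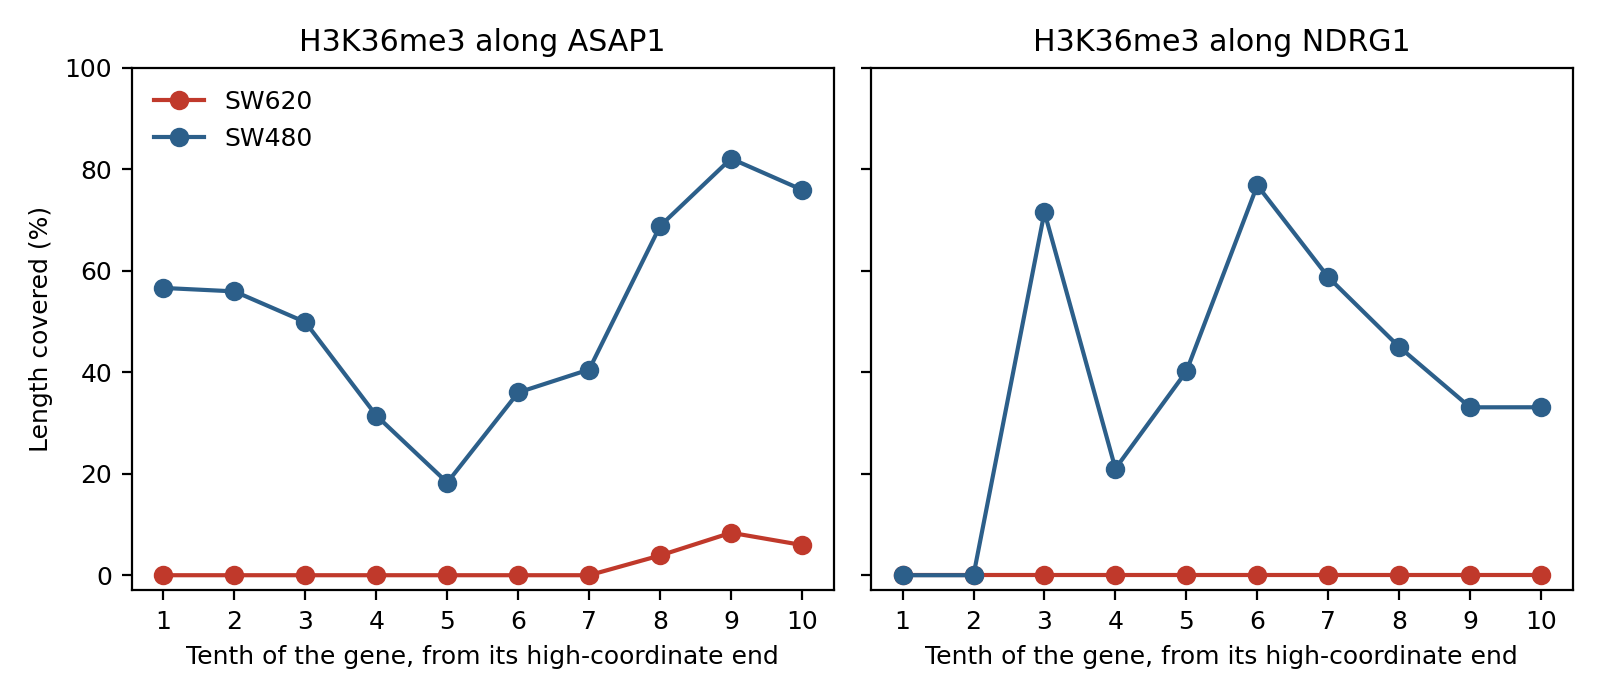
Percent covered by H3K36me3 in each of 10 equal parts of ASAP1 (left) and NDRG1 (right) in SW620 (red) and SW480 (blue), counted from the high-coordinate end, which is the start of both genes. SW620 is at 0 in the first 7 parts of ASAP1 and throughout NDRG1, and SW480 stands between 18.3% and 82.1% along ASAP1.

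The other 3 genes had little or no H3K36me3. ST3GAL1, from 134467091 to 134584183, held no region in SW620 and 2 in SW480, which covered 2.44% of it with widths of 1859 and 1001 bp. KCNQ3 and ADCY8 held none in either line. The order of coverage in SW480 was thus ASAP1, NDRG1, ST3GAL1, and then KCNQ3 and ADCY8 with none.

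**Figure D3:**
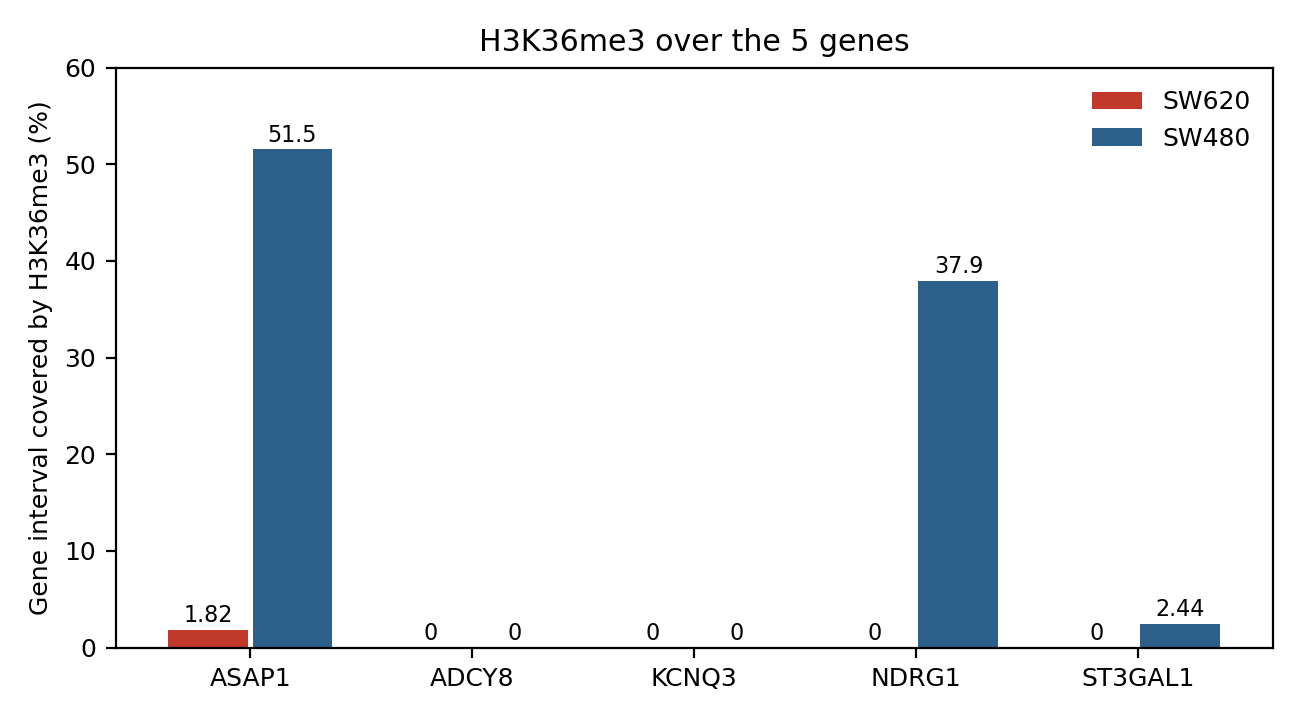
Percent of each gene interval covered by H3K36me3 regions, with a bar for SW620 (red, left) and SW480 (blue, right) over each of the 5 genes. ASAP1 has 1.82% in SW620 and 51.5% in SW480, NDRG1 has 0 in SW620 and 37.9% in SW480, and the other genes stay at or below 2.44%.

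Between the genes the lines were closer and the direction was not uniform. The stretch between the lower edge and ASAP1 held 10 H3K36me3 regions in each line, over 11.3 kb in SW620 and 15.3 kb in SW480. In the order of a gene table on GRCh38, used here for names only, CYRIB, a Rac1-binding regulator of the actin cytoskeleton, and GSDMC, a gasdermin, are the protein-coding genes next to ASAP1 on that side. Between ADCY8 and KCNQ3, where the table lists EFR3A, OC90 and HHLA1, SW620 had 3 regions of 1001 bp each and SW480 had 1 of 1251 bp, none of them shared. Between KCNQ3 and NDRG1 each line had 5, over 5.91 kb in SW620 and 5.65 kb in SW480. The table places DNAAF11, TMEM71, PHF20L1, TG, SLA and CCN4 there. Which of these genes a given region lies in was not analysed here.

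A profile in bins of 100 kb showed the extent of the difference. Of the 50 bins, 7 had at least 10% of their length covered by H3K36me3 in a line, and in 6 of these the covered length was at least 4-fold lower in SW620, against 6.55% of 5177 such bins over all chromosomes. In none was it at least 4-fold higher in SW620, against 3.82%. The 6 bins were 5 neighbours over ASAP1 and 1 over NDRG1. In the bin from 131100001 to 131200000 the covered length was 4.80 kb in SW620 and 73.2 kb in SW480. In the bin from 131400001 to 131500000 it was 0 in SW620 and 34.8 kb in SW480. The bin that missed the 4-fold mark, from 130800001 to 130900000 and below ASAP1, had 8.28 kb in SW620 and 10.9 kb in SW480. These bins rest on the contrast that chose the window.

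Along chromosome 8 the next lower window was more even in H3K36me3 and the next higher one was not. From 125 to 130 Mb H3K36me3 covered 138.9 kb in SW620 and 140.1 kb in SW480. From 135 to 140 Mb, a stretch with few regions, it covered 5.26 kb in SW620 and 11.8 kb in SW480. H3K4me2 in that higher window covered 20.6 kb in SW620 and 39.7 kb in SW480, a ratio of 0.518 beside 0.564 in the window described. For H3K27ac the lower window was the uneven one. From 125 to 130 Mb it covered 89.15 kb in SW620 and 174.0 kb in SW480, a ratio of 0.512 beside 0.332 in the window described. From 135 to 140 Mb the H3K27ac ratio was 0.867. Another 19 windows of 5 Mb had at least 100 kb of H3K36me3 in either line. Their H3K36me3 ratio of SW620 to SW480 ran from 0.802 to 2.26, with a median of 1.07. Windows with less H3K36me3 departed further. From 75 to 80 Mb it covered 59.2 kb in SW620 and 1.85 kb in SW480, and from 80 to 85 Mb 35.6 kb in SW620 and 78.6 kb in SW480.

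**Figure D4:**
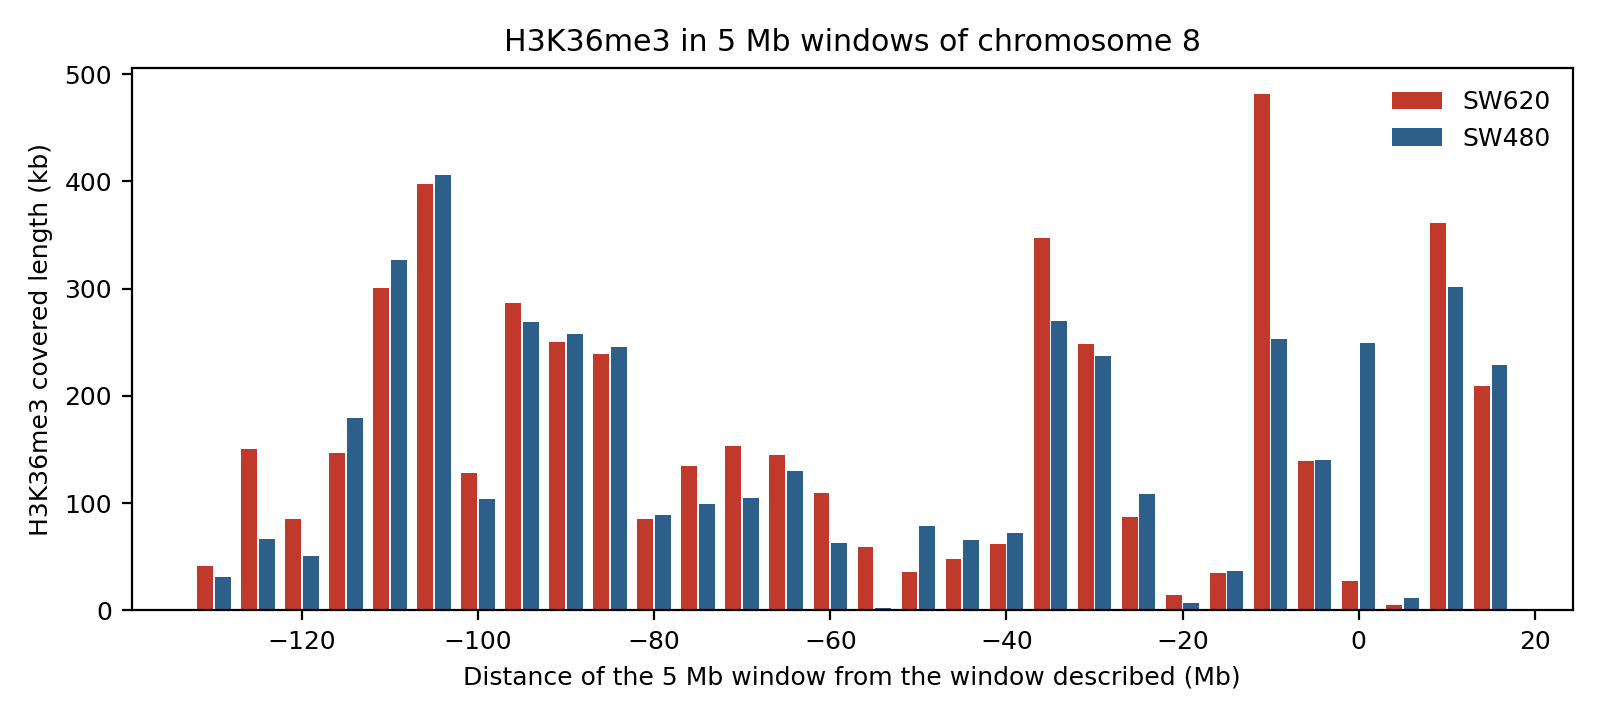
Length covered by H3K36me3 (kb) in consecutive 5 Mb windows of chromosome 8, in SW620 (red, left) and SW480 (blue, right), by their distance from the window described, which is at 0. The window at 0 has 27.3 kb in SW620 and 249.7 kb in SW480, while the next lower one has 138.9 and 140.1 kb in the same order.

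The starts of the genes gave a different picture from their bodies. H3K4me3 covered the start of ASAP1, NDRG1 and ST3GAL1 in both lines. At ASAP1 the H3K4me3 region had 1511 bp in SW620 and 3647 bp in SW480. At NDRG1 it had 2993 bp in SW620 and 4107 bp in SW480. At ST3GAL1 it had 3679 bp in SW620 and 3855 bp in SW480. In the H3K4me3 libraries 52.0% of 12791745 tags lay in regions in SW620 and 73.0% of 16400013 in SW480, and the part of this gap in the widths was not tested. Another shared region lay inside ASAP1, with 2561 bp from 131369615 to 131372175 in SW620 and 2359 bp from 131369733 to 131372091 in SW480, and it was acetylated in both lines. ASAP1 and NDRG1 therefore had a called promoter mark in SW620, with 1.82% and 0 of their bodies under H3K36me3.

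Acetylation at the same 3 starts was narrower in SW620. The H3K27ac region at the start of ASAP1 had 1001 bp in SW620, from 131455793 to 131456793, and 5015 bp in SW480, from 131452748 to 131457762. At NDRG1 it had 2101 bp in SW620 and 5015 bp in SW480. At ST3GAL1 it had 1253 bp in SW620 and 4639 bp in SW480. The ratios of SW620 to SW480 were 0.200, 0.419 and 0.270 in that order. A width of 1001 bp was the smallest of SW620 H3K27ac in the window, with the caller's peak size at 1000 bp. The ratio of 0.200 at ASAP1 thus rests on a region at that floor. The other 5 H3K27ac regions that paired 1 to 1 between the lines had ratios from 0.823 to 1.01.

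At least 2-fold narrower in SW620 were thus 3 of 8 H3K27ac pairs in the window, against 5.38% of 14898 pairs in the whole lists, whose median log2 ratio was -0.12. For H3K4me3 it was 1 of 9 pairs, the start of ASAP1, against 1.27% of 14913. For H3K4me2 it was 0 of 15, against 1.73% of 22669, and its widest regions were those at the same 3 starts. The H3K4me2 region had 3357 bp in SW620 and 5215 bp in SW480 at ASAP1. It had 3679 bp in SW620 and 4867 bp in SW480 at NDRG1. At ST3GAL1 its width was 4279 bp in SW620 and 4707 bp in SW480. The 3 narrow H3K27ac pairs were those at the starts of ASAP1, NDRG1 and ST3GAL1. The start of KCNQ3 had H3K27ac in SW480 alone and that of ADCY8 in neither line, so these could form no pair. H3K27ac entered the choice of the window, so the count is a description. The SW620 H3K27ac library had the lower share of tags in regions, given above, and its part in these widths was not tested.

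**Figure D5:**
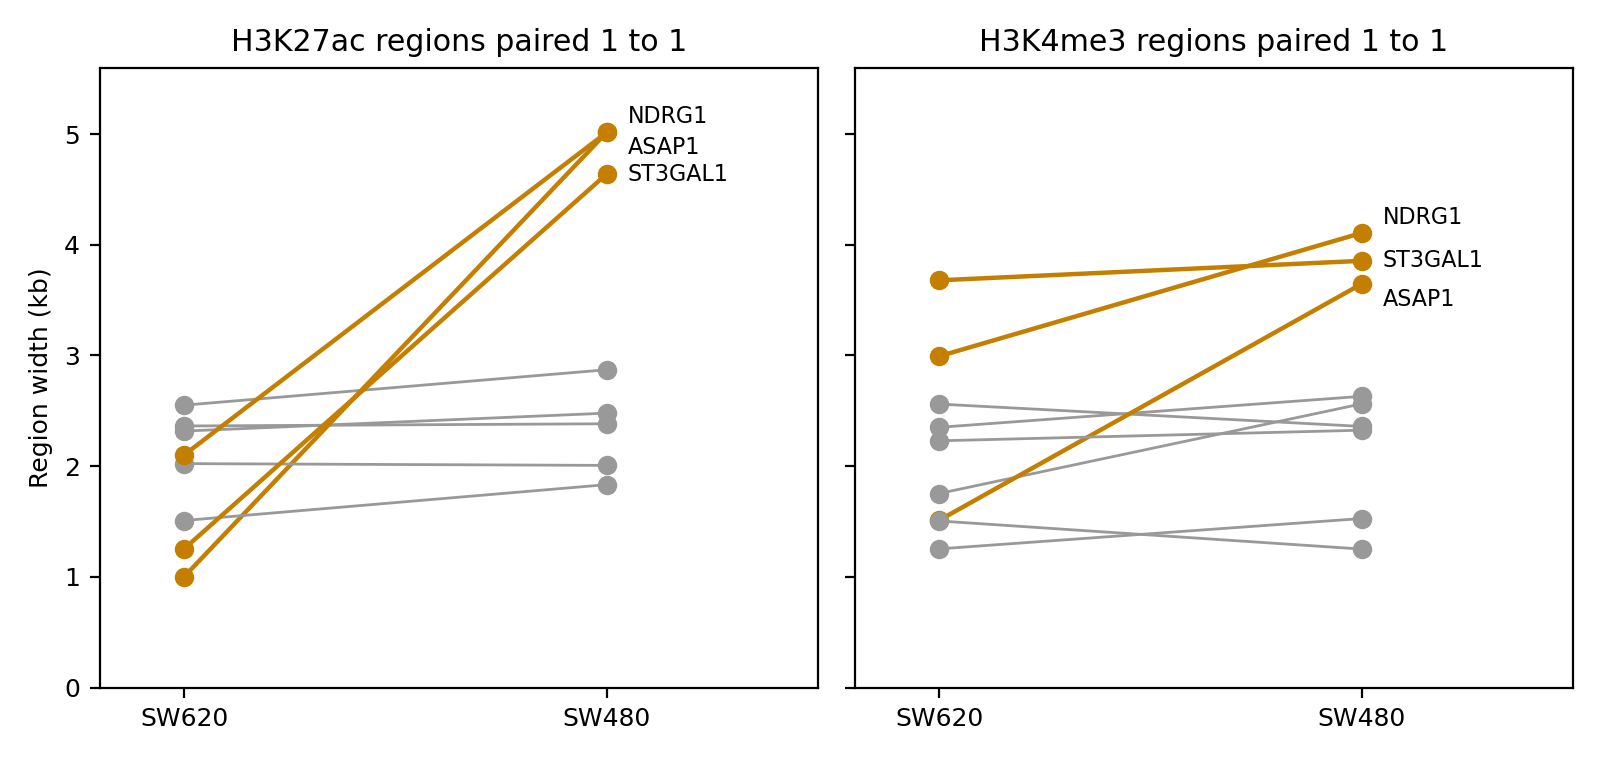
Widths in kb of the 8 H3K27ac (left) and 9 H3K4me3 (right) regions of the window that paired 1 to 1, with SW620 at the left and SW480 at the right of each line. Orange lines are the regions at the starts of ASAP1, NDRG1 and ST3GAL1, of 1001, 2101 and 1253 bp for H3K27ac in SW620 and 5015, 5015 and 4639 bp in SW480. Grey lines are the others.

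KCNQ3 was the gene with a start marked in SW480 alone. No H3K4me3 region covered it in SW620, where the nearest lay 194 kb from the start. In SW480 an H3K4me3 region of 1643 bp, from 133492246 to 133493888, lay over the start at 133493004. It was the sole SW480-only H3K4me3 region of the window. An H3K4me2 region of 4063 bp from 133491138 to 133495200 and an H3K27ac region of 1527 bp from 133492115 to 133493641 lay with it. The nearest SW620 regions of those marks were 110.4 kb and 293.8 kb from the start.

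Within KCNQ3, SW480 also had an acetylated site from 133457843 to 133460655, on an H3K4me2 region from 133458423 to 133461121, and SW620 had neither. In all, KCNQ3 held 1 H3K4me2 region in SW620 and 4 in SW480. The SW620 one, of 1001 bp from 133381619 to 133382619, was not acetylated. In SW480 KCNQ3 thus had a marked start with no H3K36me3 over the gene, and ST3GAL1 a marked start with 2.44% of its body covered, while ASAP1 and NDRG1 had both. ADCY8 had no H3K4me3 or H3K27ac in either line and a single H3K4me2 region of 1001 bp, in SW480 from 131915729 to 131916729.

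Acetylated regions called in a single line lay both inside and outside the 5 genes. ASAP1, ADCY8, KCNQ3, NDRG1 and ST3GAL1 spanned 391.6, 260.3, 359.9, 60.1 and 117.1 kb in that order. Most of the 5 Mb window thus lay outside them. Of the 2 in SW620, 1 lay below ASAP1 and 1 inside it. Of the 18 in SW480, 14 lay outside the 5 genes, where most of the window's length also lies, so no preference is read from this count. Other genes lie in those stretches, and regions were not assigned to them. These 18 were spread over 9 of the 11 genes and stretches, unlike the SW480-only H3K36me3 regions. The largest group, 5 regions against none in SW620, lay in the stretch of 336.6 kb between the start of ASAP1 and ADCY8. They began 38.6, 83.7, 171 (from 131626924 to 131628778), 238.4 and 248.2 kb beyond the ASAP1 start and were 1001 to 2789 bp wide. In that stretch H3K27ac covered 0.887 kb in SW620 and 11.1 kb in SW480, counting the edge of the region at the ASAP1 start.

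The widest SW480-only H3K27ac region had 3255 bp, from 132852915 to 132856169 between ADCY8 and KCNQ3, and an H3K4me2 region of 2963 bp, also SW480-only, lay with it. Around NDRG1 there were SW480-only regions 77.9 kb below its start, from 134228971 to 134231607, and 43.3 and 77.2 kb above it. Each of these 3 lay on H3K4me2 of SW480. Of the 18, 1 overlapped H3K4me3 of SW480, the start of KCNQ3, where 2959 of the 7519 SW480-only H3K27ac regions of the whole list did. The SW480-only acetylated regions of the window were thus mostly away from H3K4me3. Of all 26 SW480 H3K27ac regions, 9 overlapped H3K4me3 of SW480, against 67.0% of the whole list. H3K27ac entered the choice of the window, so these counts are a description.

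H3K4me2 at these sites differed between the lines as well. Of the 18 SW480-only H3K27ac regions, 3 overlapped H3K4me2 of SW620 (16.7%, 3.58 to 41.4) and 16 overlapped H3K4me2 of SW480 (88.9%, 65.3 to 98.6). In the whole list these shares were 52.0% and 82.7%. The 3 with H3K4me2 in both lines were the regions from 131078953 to 131081555 in ASAP1, from 131539565 to 131542165 beyond its start, and from 134228971 to 134231607 below NDRG1. At the other 15 neither mark was called in SW620. H3K27ac and H3K4me2 both entered the choice of the window, so both shares are a description. The intervals do not cover that choice, and nothing is read from them against the list.

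SW620 had 2 acetylated regions of its own. The wider, 2779 bp from 130995291 to 130998069 below ASAP1, lay on an H3K4me2 region of 2869 bp that was also called in SW620 alone. The other, 2681 bp from 131313099 to 131315779, lay inside ASAP1 on H3K4me2 called in both lines, of 1773 bp in SW620 and 1507 bp in SW480. An SW480 H3K36me3 region of 1639 bp, from 131312623 to 131314261, covered its lower part. These were the 2 widest H3K27ac regions of SW620 in the window, and next came 2551 bp from 130950773 to 130953323, shared with SW480.

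Outside the 5 genes the shared H3K4me3 regions differed less than 2-fold in width between the lines. There were 5 in SW620 and the same 5 positions in SW480, with ratios of SW620 to SW480 from 0.684 to 1.20. The H3K4me3 ratios at the starts of NDRG1 and ST3GAL1, 0.729 and 0.954, lay inside that range. A region near 133687094, 1253 bp in SW620 and 1527 bp in SW480, had no H3K27ac in either line. The region near 132915127, 2229 bp in SW620 and 2325 bp in SW480, had acetylated regions of 2023 bp in SW620 and 2007 bp in SW480.

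No FOXA2 peak of the window overlapped H3K4me2 of its own line. In SW620, 0 of 9 peaks overlapped SW620 H3K4me2, against 51.7% of the 12372 peaks of the list, and the floor of 3 counts puts the limit at a share of 33.3%. On any histone region of SW620 lay 0 of the 9, against 56.7% of the list. On any histone region of SW480 lay 4 of the 9 (44.4%, 13.7 to 78.8), against 36.3% of the list, which is inside that interval. On H3K4me2 of SW480 lay 2 of the 9, against 30.2% of the list. In SW480, 0 of 9 peaks overlapped SW480 H3K4me2, against 5.61% of the list, so that 0 of 9 is near the share of the list. FOXA2 did not enter the choice of the window, but H3K4me2 of SW620 did, and few such regions were there to be met. The deficit is thus not independent of the choice.

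The 4 SW620 peaks on SW480 regions are named here after their positions were seen. The peak from 131704478 to 131704796, beyond the ASAP1 start, lay with all 319 bp on an H3K27ac and an H3K4me2 region that were called in SW480 alone. The peak from 132783453 to 132783771 lay on an SW480-only H3K4me2 region of 1001 bp. The peak from 131276886 to 131277204 lay inside ASAP1 on SW480 H3K36me3. The peak from 134228667 to 134228985 met the edge of the SW480 H3K27ac region below NDRG1 by 15 bp, and the nearest SW620 H3K4me2 region was 1.29 kb away. At these positions FOXA2 was called in SW620 and the histone mark in SW480.

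All peaks were 319 bp wide in SW620 and 127 bp wide in SW480, and 2.25% of SW620 tags and 0.590% of SW480 tags lay in peaks. The SW620 peaks numbered 2 in ASAP1, 2 between ASAP1 and ADCY8 and 5 elsewhere outside the genes. The SW480 peaks numbered 2 in ASAP1, 1 in KCNQ3 and 6 outside the genes, 3 of these below ASAP1. NDRG1, ST3GAL1 and ADCY8 held no peak of either line. The SW480 peaks beginning at 131083124 in ASAP1, at 131625073 and at 133960485 lay 1.57, 1.72 and 1.51 kb from SW480-only H3K27ac regions. The last of them was also the SW480 peak nearest to H3K4me2 of SW480, at 1.43 kb. The closest peaks of the lines were 29.6 kb apart.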

How the data were processed

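The 10 antibody libraries each had a deposited list of regions. The authors made each list from 1 library, with that line's input as control, using HOMER's findPeaks per the file headers, in the histone style with 4-fold enrichment over input or in the factor style for FOXA2 with 2-fold, at a false discovery rate of 0.001. The submitters' processing notes name hg19 as the build. Neither HOMER's version nor an aligner was given in the sources used here. The score deposited by the authors was 1 in every row, so positions alone were used and no signal was analysed.

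Regions overlapping the window were taken, with shared meaning an overlap of at least 1 bp with the same antibody's list of the other line. A region that met a gene interval was counted in that gene. Lengths are of merged regions clipped to the interval. Pairs are regions that met each other and no further region. Named were the 3 widest regions per histone mark and line, the widest line-only ones, all SW620-only H3K27ac and all line-only H3K4me3 regions, with others only as examples. Python 3.11.15, numpy 2.4.6, pandas 2.3.3, scipy 1.17.1 and matplotlib 3.10.9 were used, and the functions were tested on simulated regions. The members, genes and lists were chosen with earlier results of these data known. No sequence of the window is printed. The input libraries and gene coordinates of GRCh38 were not used here.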

Additional observations from a re-analysis of the deposited data

How the results depend on the processing

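Of 72 alternative values for 30 results, 64 kept their direction and lay, for shares of regions, within the 95% interval of the value reported or, for the other values, within 1.5 times of it. Another 6 moved and 2 turned. With few regions these intervals are wide: the line-only share of SW620 was 19.2% for H3K27ac when an overlap of 50% of both regions was asked (10.0% otherwise), and 5.05% for H3K36me3 when regions within 5 kb counted as shared (9.48% otherwise). Counts are given as the share of SW620 among the regions of both lines. For H3K36me3 it was 16.7%, and it was 37.1% when rows up to 5 kb apart were joined (13 SW620 and 22 SW480 stretches), 37.5% without ASAP1 and 50% without ASAP1 and NDRG1, against 46.3% in the whole lists. The last 2 were added after the data were seen, and they have fewer regions by construction. With lists of equal length, the line-only share of SW620 was 6.67% for H3K4me2 (18.8% otherwise) and 17.4% for H3K36me3 (9.48% otherwise). The H3K4me3 share of 47.4% then lay below the 50% of the lists instead of above their 47.1%. Every score was 1, so the lists could not be shortened by score. The histone regions that the window lost were narrow ones. SW480 H3K36me3 fell from 115 regions over 249.7 kb to 77 over 214.7 kb. SW620 H3K4me2 fell from 21 over 44.3 kb to 15 over 38.3 kb. Such a cut does not control for depth. The covered FOXA2 length of SW620 over SW480, 2.51, was 5.80 with the window 1 Mb lower and 1.12 with lists of equal length. The widths of peaks are fixed, so this ratio moves with the numbers of peaks alone. No paired analysis was possible because each group has 1 library. The files give no depth per region, so a region just under the caller's threshold in a line counts as not called. Copy number in the lines was not analysed here.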
